A study of Rattus norvegicus with 3 samples.

Results

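The genes described here encode the Src family kinases Src, Fyn and Yes1, their inhibitory kinase Csk, the focal adhesion kinase Ptk2, the Crk adaptors Crk and Crkl, and the Cas scaffolds Bcar1, Nedd9 and Efs. They were chosen by symbol, and each of the 10 matched exactly 1 of the 26353 entries of the deposited table. The study, titled for polarized Dock activity in axon guidance by Sonic hedgehog (Shh), sequenced polyadenylated RNA of commissural neurons from rat spinal cord. The cells were taken from embryos of embryonic day 13 and kept dissociated in culture for 2 days, with no added treatment or genetic change named in the labels. All 3 libraries form this 1 group, and they are called libraries 1, 2 and 3 by the replicate numbers of the labels. The sources used here give neither the strain, nor the number of embryos per library, nor how the neurons were purified. They do not say that the libraries are separate cultures, so every p-value covers only a spread between samples that may be technical.

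Src family kinases are tyrosine kinases anchored at the inner face of the plasma membrane. Csk holds them inactive by phosphorylating a tyrosine in their tail, and they act together with focal adhesion kinase on Cas scaffolds, whose phosphorylated tyrosines then bind the adaptors Crk and Crkl. Crk proteins in turn recruit exchange factors such as Dock1 for Rac and Rapgef1 for Rap. In commissural axons, Src and Fyn are known to act downstream of the Shh co-receptor Boc in turning toward Shh. The values here are levels of RNA of each whole gene, so activity, phosphorylation and splice forms such as the neuronal forms of Src were not measured.

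The label of the cultures was checked against cell class markers. All 9 pan-neuronal and 4 of 4 commissural axon markers lay above 1 FPKM (the authors' fragments per kilobase and mapped depth, a level per transcript length). So did 8 of 8 progenitor and 6 of 6 proliferation markers, beside 63.7% of all entries tested. The same held for 4 of 10 microglia and macrophage, 3 of 5 astrocyte, 2 of 5 oligodendrocyte, 1 of 7 fibroblast and mural and 1 of 3 erythroid markers. Progenitor markers summed to 955, 1211 and 983 FPKM in libraries 1, 2 and 3, led by Fabp7 at 564 ± 106 (SD, n = 3). Pan-neuronal markers summed to 2321, 2507 and 2264 FPKM, and commissural axon markers to 245, 172 and 252. Of the 5 endothelial markers, limma called 0, with 0 also at an unadjusted p under 0.05, and all 5 lymphocyte markers were listed at 0 in every library. The RNA comes from all cells of a culture, so fewer cells of a type and less RNA per cell cannot be told apart.

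All 10 genes were expressed, at levels that spanned a 25.3-fold range from Fyn to Nedd9. Folds here and below were computed from log2(FPKM + 0.1), which understates those against low genes, slightly for the 10 genes and strongly for genes near 0. Fyn stood alone at the top, with a mean of 121 FPKM. Csk, Crk, Src and Crkl followed between 34.5 and 46.0 FPKM, Bcar1 and Ptk2 lay at 28.4 and 27.4, and Efs, Yes1 and Nedd9 formed a low group between 4.67 and 7.96 FPKM. Their median was 31.4 FPKM, beside 4.81 FPKM for the 17611 entries tested, which include those near 0, and 12.6 FPKM for the 10613 named and described entries with a mean of at least 1 FPKM. All 10 passed limma's one-sided test against 1 FPKM (highest limma adjusted p = 1.28e-08, for Nedd9), as did 63.7% of all entries tested. Adjusted p-values here are Benjamini-Hochberg values over all entries of the fit. With each library rescaled to a sum of 1000000 FPKM, most of which entries above 10000 FPKM hold, 5 of the 10 passed: Fyn, Csk, Crk, Src and Crkl. This rescaling lowered the median entry by 4.54 on the log2 scale. The share of all entries that pass under it was not computed, so counts after rescaling, here and below, have no background beside them.

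**Figure D1:**
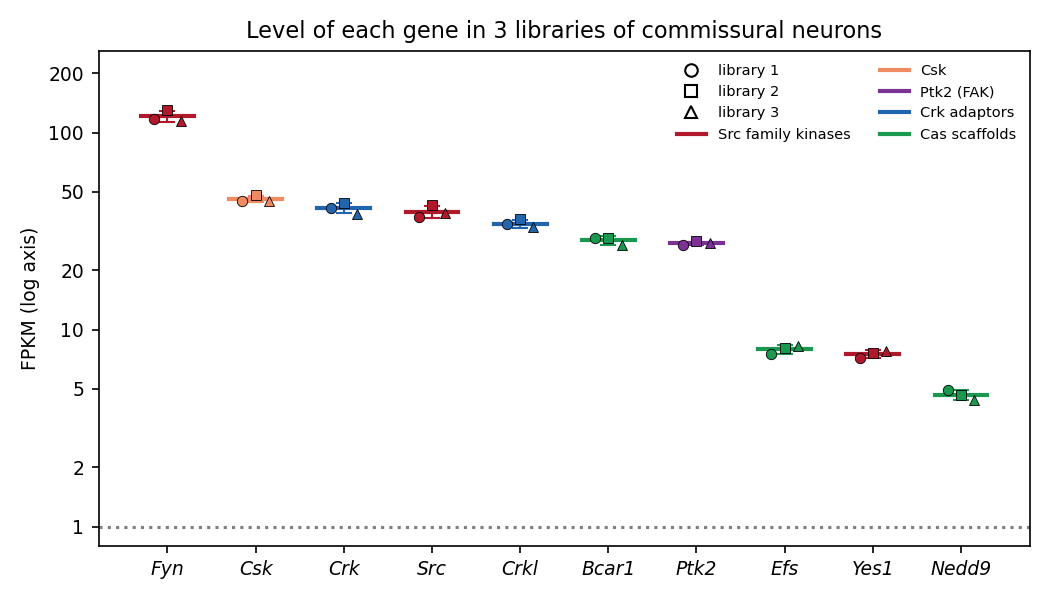
Level of each of the 10 genes, ordered by mean, in FPKM on a log axis. Symbols are single libraries, horizontal bars the mean and error bars the SD (n = 3), the dotted line marks 1 FPKM, and colours mark the roles; Fyn lies alone at 121 FPKM, and Efs, Yes1 and Nedd9 lie below 10.

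Among the kinases, Fyn (ENSRNOG00000000596) had 117.02, 129.68 and 114.89 FPKM in libraries 1, 2 and 3, a mean of 121 ± 8.0 (SD, n = 3). It was highest of the 10 in each library, and its level exceeded that of 96.5% of all entries tested. Src (ENSRNOG00000009495) had 37.17, 42.77 and 39.21 FPKM (39.7 ± 2.83, SD, n = 3). Yes1 (ENSRNOG00000037227), a close and broadly expressed relative of Src, had 7.15, 7.62 and 7.78 FPKM (7.52 ± 0.327). The ranges of the 3 kinases did not overlap. Src exceeded Yes1 by 5.22-fold (95% interval 4.64 to 5.88, limma adjusted p on within-library ratios = 3.76e-08, higher in 3 of 3 libraries), and Fyn exceeded Yes1 by 15.8-fold (14.0 to 17.9, limma adjusted p = 5.06e-08, 3 of 3 libraries). Of the summed FPKM of these kinases, Fyn made up 72.5%, 72.0% and 71.0% in libraries 1, 2 and 3, Src 23.0%, 23.8% and 24.2%, and Yes1 4.43%, 4.23% and 4.81%. The division of the sum was thus nearly the same in each library, with an SD under 1 percentage point for each kinase.

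The other Src kinases reported here were lower than Fyn, Src and Yes1 in each library, and far lower than Fyn and Src. Lyn, best known from blood cells and microglia, had 1.05, 1.91 and 1.33 FPKM (1.43 ± 0.439), 26.7-fold below Src (20.7 to 34.4, limma adjusted p = 5.09e-08) and 80.9-fold below Fyn (61.3 to 107, limma adjusted p = 1.12e-07), in 3 of 3 libraries each. The size of folds against such low genes depends on the pseudocount: with 1 in place of 0.1, Lyn lay 16.9-fold below Src and 50.5-fold below Fyn. The call of Lyn above 1 FPKM (limma adjusted p = 0.0266) was lost without library 2 (limma adjusted p = 0.159). Fgr, a kinase of myeloid cells, had 0.46, 1.09 and 0.84 FPKM, and Blk, a kinase of B cells, was listed at 0, 0.02 and 0. Of the near relatives outside the core family, Frk had 0.0333 ± 0.0153 FPKM, and Ptk6 and Srms, known from epithelia and skin, were listed at 0 in every library. Thus 4 of the 9 Src kinases and near relatives reported here passed, beside 63.7% of all entries tested. Without Src, Fyn and Yes1, 1 of the remaining 6 did, which was Lyn. After rescaling each library to a sum of 1000000 FPKM, 2 of the 9 passed. Lyn and Fgr were lowest in library 1 and highest in library 2, and the summed FPKM of the 10 microglia and macrophage markers was 14.4, 23.9 and 22.2 in libraries 1, 2 and 3. Of these markers Aif1 was the highest (6.76 ± 1.47 FPKM), 4 of 10 passed and none was at 0 in every library. They did not all follow the sum: Tyrobp (4.13, 7.64 and 5.59 FPKM) was highest in library 2, but Aif1 (5.08, 7.38 and 7.82) in library 3. Library 2 was also higher than the other 2 by a median of 0.145 on the log2 scale over described entries of at least 5 FPKM. The part of such cells in the Lyn and Fgr values was not tested. Yes1 and Src were also lowest in library 1, by less.

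The promoters of the 3 kinases are shown to give the sequence beside these levels. Each is the 250 bases before the gene's start in RefSeq (build GRCr8, plus strand), with CG dinucleotides in capitals. The deposited values do not show which start these cells use.
Fyn, chr20:44322414-44322663: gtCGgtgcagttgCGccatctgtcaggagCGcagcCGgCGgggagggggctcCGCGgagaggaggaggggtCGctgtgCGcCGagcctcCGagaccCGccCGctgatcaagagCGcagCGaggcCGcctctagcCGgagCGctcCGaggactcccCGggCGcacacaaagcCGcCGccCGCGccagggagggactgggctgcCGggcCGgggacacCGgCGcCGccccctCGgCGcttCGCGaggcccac
Src, chr3:166544438-166544687: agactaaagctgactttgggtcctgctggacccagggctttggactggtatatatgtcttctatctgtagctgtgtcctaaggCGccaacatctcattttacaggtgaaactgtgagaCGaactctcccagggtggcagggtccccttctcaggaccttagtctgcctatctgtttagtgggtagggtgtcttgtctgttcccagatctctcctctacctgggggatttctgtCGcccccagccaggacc
Yes1, chr9:120646610-120646859: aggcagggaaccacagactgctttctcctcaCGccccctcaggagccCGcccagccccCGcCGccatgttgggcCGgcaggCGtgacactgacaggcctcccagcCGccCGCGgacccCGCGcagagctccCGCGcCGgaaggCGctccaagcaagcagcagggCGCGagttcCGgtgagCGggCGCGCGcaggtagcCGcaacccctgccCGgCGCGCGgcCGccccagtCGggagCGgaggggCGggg
The Fyn window holds 34 CG dinucleotides with 76.8% G and C, the Yes1 window 31 with 76.4%, and the Src window 3 with 52.8%, against a median of 5 and 51.2% over all 33469 windows of this length. Of the 10 genes, 8 had a window in this table, Bcar1 had 2, and Csk and Ptk2 had none. The other windows held 32 for Crk, 24 and 20 for Bcar1, 19 for Crkl, 17 for Efs and 14 for Nedd9. The letters CG occur at least once in 92.2% of all windows. Fyn and Yes1 were close in CG content and 15.8-fold apart in FPKM, and Src, with the fewest, ranked between Crk and Crkl in level. Among Crk, Crkl, Bcar1, Efs and Nedd9 alone, the windows ran nearly in the order of the levels, except that Bcar1 held more than Crkl. Over all 8 genes with a window this order did not hold: Yes1 held 31 at 7.52 FPKM and Src 3 at 39.7 FPKM. No relation between CG content and level was tested.

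Csk (ENSRNOG00000019374), the inhibitor of the Src kinases, had 44.95, 48.00 and 45.14 FPKM (46.0 ± 1.71, SD, n = 3). It was the second highest of the 10 genes in each library. Csk exceeded Src by 1.16-fold (1.07 to 1.25, limma adjusted p = 0.0032, 3 of 3 libraries) and lay 2.61-fold below Fyn (2.44 to 2.80). The summed FPKM of Src, Fyn and Yes1 was 3.59, 3.75 and 3.59 times that of Csk in libraries 1, 2 and 3. Matk, the only close relative of Csk and a kinase of blood cells and brain, had 0.60, 0.46 and 0.52 FPKM, which put Csk 73.9-fold higher (56.2 to 97.1, limma adjusted p = 5.49e-08, 3 of 3 libraries), or 30.8-fold with a pseudocount of 1.

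The rest of this list holds phosphatases that act on Src kinases and adaptors that bind Csk or phosphatases at the membrane. Of 9 genes beside Csk, 6 lay above 1 FPKM, near the 63.7% of all entries. Rescaled to a sum of 1000000 FPKM per library, 2 of the 10 genes with Csk did. The highest were 3 phosphatases that can activate Src kinases: Ptpn11 (Shp2) had 36.6 ± 2.39, Ptpra 33.3 ± 3.87 and Ptpn1 24.6 ± 1.11 FPKM. Lime1, a membrane adaptor that binds Csk, had 8.09, 6.03 and 9.86 FPKM and was lowest in library 2. Pag1, the membrane anchor of Csk, had 2.29 ± 0.112 FPKM, and Ptpre, a phosphatase closely related to Ptpra (0.617 ± 0.146), and Sit1 (0.02 ± 0.0173) did not pass. Of 5 other inhibitors of Src signalling, 2 passed, and 1 after the same rescaling: the scaffold Rack1 at 488 ± 60.3 FPKM and Srcin1, a neuronal inhibitor that acts through Csk, at 13.9 ± 0.827. The adaptors Sla (0.833 ± 0.300) and Sla2 (0.19 ± 0.0361) and caveolin Cav1 (1.26 ± 0.352) did not, although Cav1 did without library 1 (limma adjusted p = 0.00485).

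Ptk2 (ENSRNOG00000007916), which encodes focal adhesion kinase, had 26.98, 27.98 and 27.37 FPKM (27.4 ± 0.504, SD, n = 3). Its coefficient of variation of 1.84% was the smallest of the 10 genes, and 96.4% of the described entries with a mean of at least 1 FPKM varied more. This holds for FPKM as deposited, without scaling between libraries. Library 2 was higher than the other 2 by a median of 0.145 on the log2 scale over described entries of at least 5 FPKM, and Ptk2 by 0.042. With such medians subtracted, Ptk2 deviated by 0.037, -0.103 and 0.049 in libraries 1, 2 and 3. Csk (0.023, -0.053 and 0.013) and Fyn (0.013, 0.017 and -0.046) then deviated less in each library. Ptk2 was thus not the least variable of the 10 genes on that scale. Src exceeded Ptk2 by 1.44-fold (1.32 to 1.58, limma adjusted p = 3.82e-05, 3 of 3 libraries). Ptk2b (Pyk2), its calcium-sensitive relative known from mature neurons and blood cells, had 0.28, 0.56 and 0.49 FPKM, 52.1-fold less (37.3 to 72.6, limma adjusted p = 8.63e-08, 3 of 3 libraries), or 19.8-fold with a pseudocount of 1. Of 12 focal adhesion partners, 10 passed, beside 63.7% of all entries; with Ptk2 the list fell from 11 to 3 under that rescaling. The adaptor Grb2 led with 71.8 ± 6.15 FPKM, before Git1 at 41.8 ± 1.98, the integrin subunit Itgb1 at 35.3 ± 1.81 and Itgb1bp1 at 14.2 ± 0.911, while Ptk2b and Grb7 (0.08 ± 0.0361) were the lowest. Paxillin (Pxn), a scaffold that binds both Ptk2 and Crk, had 9.36 ± 0.155 FPKM.

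The Crk adaptors were expressed at similar levels. Crk (ENSRNOG00000025792) had 41.53, 43.84 and 38.78 FPKM (41.4 ± 2.53, SD, n = 3), and Crkl (ENSRNOG00000001868) 34.17, 36.30 and 33.16 (34.5 ± 1.60). The ranges did not overlap, and Crk exceeded Crkl by 1.20-fold (1.09 to 1.31, limma adjusted p = 0.00174, 3 of 3 libraries). Crk made up 54.9%, 54.7% and 53.9% of their summed FPKM. Neither gene dominated the pair, unlike Fyn among the kinases and Bcar1 among the Cas scaffolds, which each held at least 67.8% of their family's sum in every library.

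Among the Cas scaffolds, Bcar1 (p130Cas, ENSRNOG00000019253) had 29.28, 29.25 and 26.74 FPKM (28.4 ± 1.46, SD, n = 3). Efs (Sin, ENSRNOG00000042029), first described as a substrate of Fyn, had 7.49, 8.10 and 8.29 (7.96 ± 0.418). Nedd9 (HEF1, ENSRNOG00000014548) had 4.92, 4.68 and 4.40 FPKM (4.67 ± 0.260). No ranges overlapped, and the order was the same in all 3 libraries. Bcar1 exceeded Efs by 3.54-fold (3.08 to 4.06, limma adjusted p = 7.05e-17) and Nedd9 by 5.99-fold (5.12 to 6.99, limma adjusted p = 2.62e-19), and Efs exceeded Nedd9 by 1.69-fold (1.46 to 1.97, limma adjusted p = 9.75e-12), each in 3 of 3 libraries. The last of these calls did not hold against a margin of 1.5-fold (limma adjusted p = 0.0712). Cass4 (HEPL), the remaining member of the family, had 0.03, 0.03 and 0.05 FPKM. Bcar1 made up 70.2%, 69.6% and 67.8% of the summed FPKM of Bcar1, Efs and Nedd9, and Efs a mean of 19.4% ± 1.53. The summed FPKM of Crk and Crkl was 1.82, 1.91 and 1.82 times that of the 3 scaffolds.

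Of the partners that Crk and Cas proteins bind, 17 of the 17 matched genes lay above 1 FPKM as deposited, beside 63.7% of all entries. Rescaled to a sum of 1000000 FPKM per library, 0 passed in limma, with 0 also at an unadjusted p under 0.05. The share of all entries under that rescaling was not computed. Nck2, an adaptor for cytoskeletal signalling, had 25.90, 25.88 and 23.35 FPKM. Rapgef1 had 24.5 ± 1.57, Elmo2 22.8 ± 0.755 and Sh2d3c (Chat), which binds Cas proteins, 22.5 ± 1.78 FPKM. The lowest were Dock1, the founding Dock exchange factor that Crk binds, at 2.42, 2.67 and 2.90 FPKM, and Bcar3, another Cas-binding protein, at 1.63 ± 0.146. Crk exceeded Rapgef1 by 1.69-fold (1.54 to 1.86, limma adjusted p = 7.41e-07) and Dock1 by 15.0-fold (12.4 to 18.2, limma adjusted p = 4.22e-10), each in 3 of 3 libraries, the latter by 8.71-fold after that rescaling. Bcar1 exceeded Pxn, another scaffold that carries Crk binding sites, by 3.01-fold (2.64 to 3.43, limma adjusted p = 5.57e-16, 3 of 3 libraries). All 8 planned pairs of a gene with its relative or partner differed; of all tests of an entry against the same anchor genes, 96.8% did.

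The last list holds substrates and partners of Src kinases in neurons. Of 18 genes, 17 passed as deposited, beside 63.7% of all entries, and 5 when rescaled to a sum of 1000000 FPKM. They were led by the RNA-binding protein Khdrbs1 (Sam68) at 191 ± 11.6 FPKM, Mapt (tau), which Fyn binds and phosphorylates, at 161 ± 4.49, and the guidance receptors Robo3 and Dcc. Robo3 had 118.21, 74.51 and 118.95 FPKM and Dcc 67.97, 48.10 and 71.64, both lowest in library 2. The lowest were Grin2b, an NMDA receptor subunit that Fyn phosphorylates, at 4.18, 1.97 and 3.75 FPKM, and Cttn. Over all lists, 53 of the 68 distinct genes beside the 10 passed, against 63.7% of all entries tested, with a median of 9.5 FPKM.

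**Figure D2:**
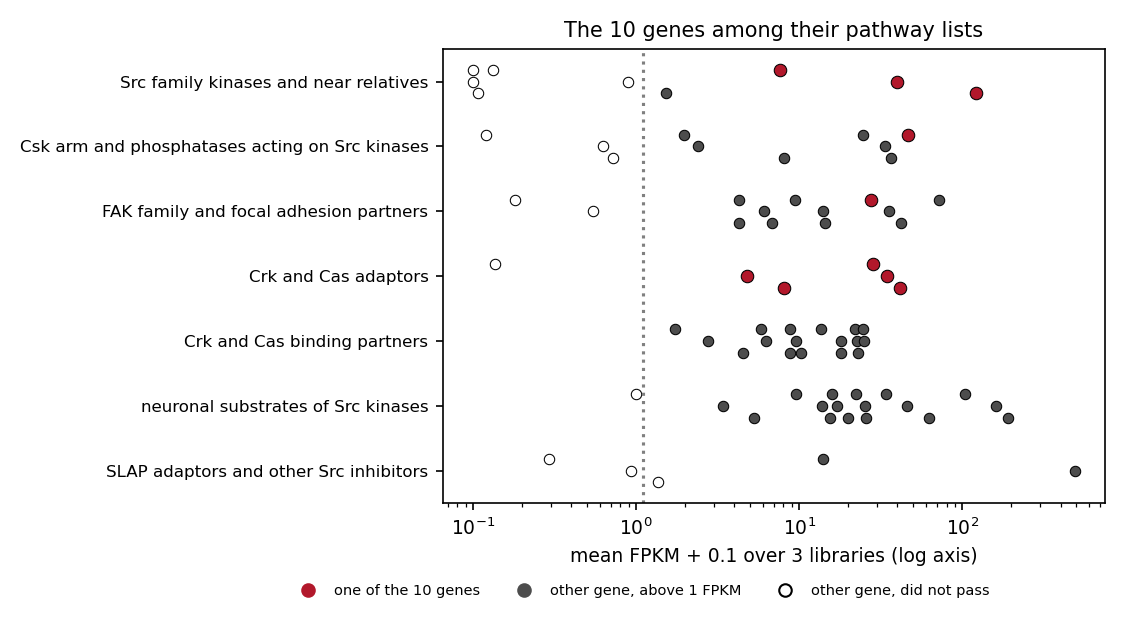
Mean FPKM + 0.1 over 3 libraries on a log axis for each matched gene of the 7 pathway lists (rows; vertical offsets only separate points). Red points are the 10 genes, dark points other genes above 1 FPKM in limma's test, open points those that did not pass, and the dotted line marks 1 FPKM + 0.1; the Src kinase row shows Fyn, Src and Yes1 apart from the other kinases, of which Lyn alone is dark.

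All 45 pairs of the 10 genes were tested on the log2 ratio within each library, and limma called 42 of them. Among all tests of an entry against the same anchor genes, 96.1% did, so a count this high is near the background. Pairs share genes and are not independent, and a difference in level between genes covers the spread between libraries but not errors of length or mapping that all libraries share. In the order Fyn, Csk, Crk, Src, Crkl, Bcar1, Ptk2, Efs, Yes1, Nedd9, 3 pairs of neighbours did not differ beyond their spread. Crk and Src differed by 0.06 on the log2 scale (95% interval -0.07 to 0.19, limma adjusted p = 0.3, Crk higher in 2 of 3 libraries). Bcar1 and Ptk2 differed by 0.05 (-0.09 to 0.19, limma adjusted p = 0.433, Bcar1 higher in 2 of 3), and Efs and Yes1 by 0.08 (-0.10 to 0.26, limma adjusted p = 0.371, Efs higher in 3 of 3). The intervals limit each of these differences to at most 0.26 on the log2 scale. Among the other neighbours, Csk exceeded Crk by only 1.11-fold (1.03 to 1.21, limma adjusted p = 0.0178, 3 of 3 libraries), a call lost without library 1 (limma adjusted p = 0.0646) and without library 3 (0.196). Src exceeded Crkl by 1.15-fold (1.06 to 1.25, limma adjusted p = 0.00639), and Crkl exceeded Bcar1 by 1.22-fold (1.12 to 1.32, limma adjusted p = 0.0012), in 3 of 3 libraries each. Against a margin of 1.5-fold, 29 of the 45 passed, among them all 9 pairs with Fyn. The 13 calls that did not hold were 11 pairs among Csk, Crk, Src, Crkl, Bcar1 and Ptk2 and the pairs of Nedd9 with Efs and Yes1.

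**Figure D3:**
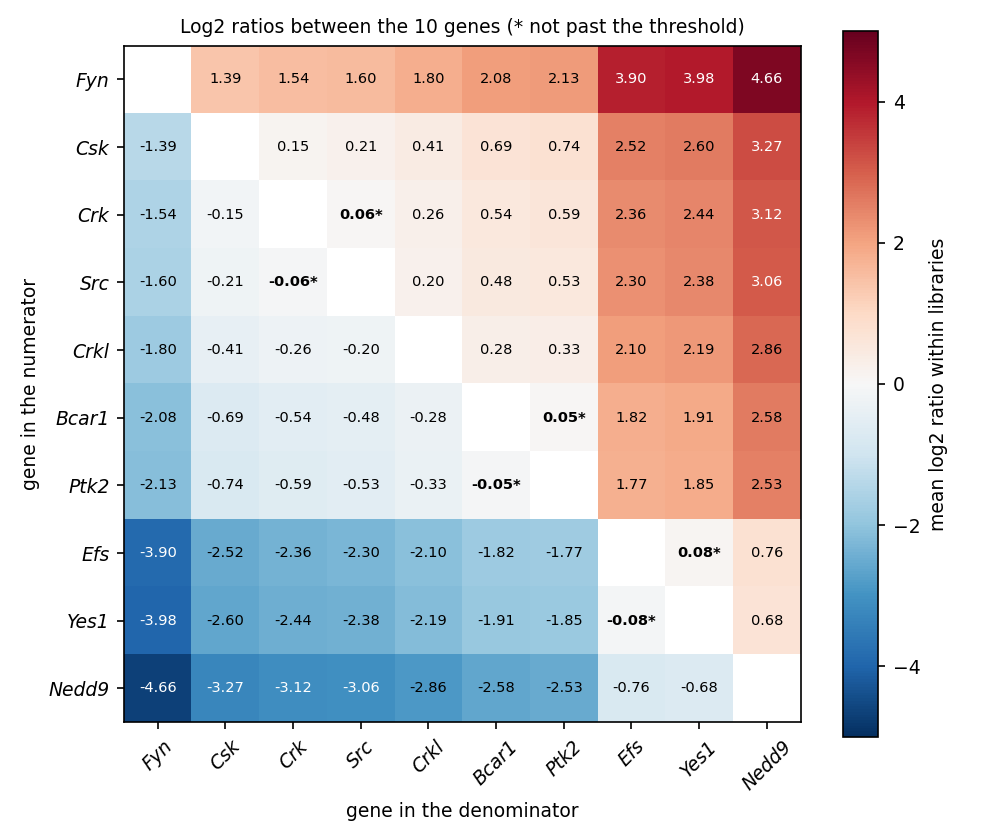
Mean log2 ratio within libraries of the gene in each row over the gene in each column, in log2 units by colour and number, for the 45 pairs of the 10 genes (n = 3 libraries). Asterisks and bold type mark the 3 pairs that did not differ past the threshold, Crk with Src, Bcar1 with Ptk2 and Efs with Yes1, and Fyn is positive against all 9 others.

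The 10 genes varied little between libraries. Their coefficients of variation ran from 1.84% for Ptk2 to 7.14% for Src, with a median of 5.19%. The median was 9.0% over the 10613 described entries with a mean of at least 1 FPKM. That set was not matched for level: its median was 12.6 FPKM, against 31.4 FPKM for the 10 genes. The coefficients were computed on FPKM as deposited, so they include differences between whole libraries. The highest value of each gene was 1.04 to 1.15 times its lowest. Library 2 was higher than the other 2 by a median of 0.145 on the log2 scale over 8023 described entries with a mean of at least 5 FPKM. After this median was subtracted, Src (0.02) and Fyn (0.02) lay close to it in library 2, while Nedd9 (-0.14), Yes1 (-0.11), Efs (-0.11) and Ptk2 (-0.10) lay below it. In all, 8 of the 10 genes lay below the median of library 2, with a middle value of -0.07, and the middle 50% of described entries ran from -0.131 to 0.095 there. In library 1, Nedd9 (0.19) and Bcar1 (0.14) were relatively high, and in library 3, Efs (0.14) and Yes1 (0.13) were. These deviations have no replicate and were not tested.

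**Figure D4:**
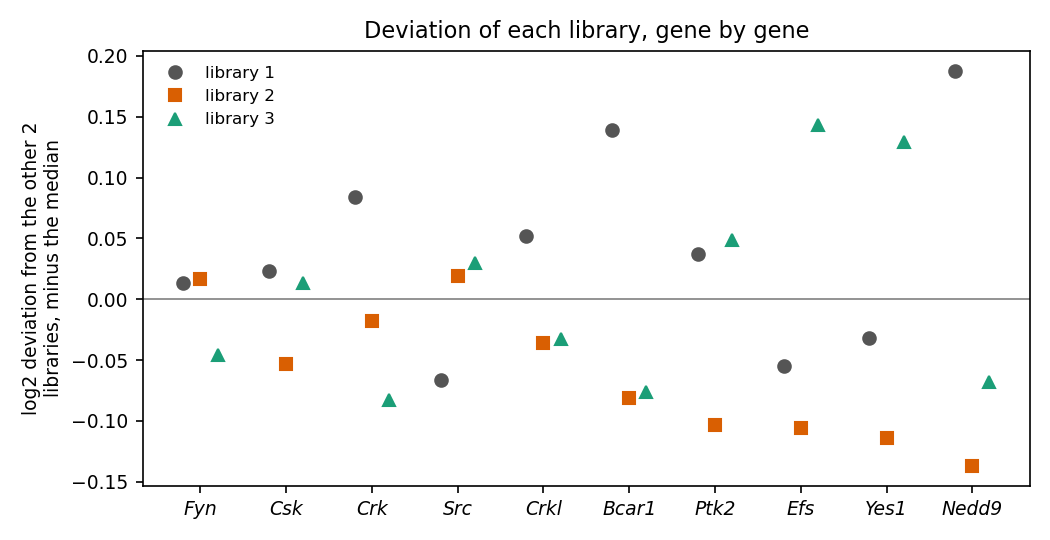
Log2 deviation of each library from the mean of the other 2, after subtraction of the median over 8023 described entries with a mean of at least 5 FPKM, for each of the 10 genes ordered by mean level. Each symbol is 1 library; library 2 lies below 0 for 8 of the 10 genes, and the deviations run from -0.14 to 0.19.

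Genes with the most similar values over the 3 libraries were found by Euclidean distance on the log2(FPKM + 0.1) scale. Nearest to Fyn were Ttyh3 (117.91, 129.41 and 116.33 FPKM) and Ivns1abp (115.77, 127.11 and 114.27). Nearest to Src were Tmem14c (37.43, 43.06 and 38.96 FPKM) and Llgl1 (37.78, 42.10 and 39.10). Ppp5c and COX20 were nearest to Crk, at distances of 0.011 and 0.026, and Jak1 and Bach1 nearest to Bcar1, at 0.035 and 0.049. With 3 libraries this likeness is mostly one of level.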

How the data were processed

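RNA was measured in 3 libraries of cultured rat commissural neurons, made with a stranded kit and sequenced with paired reads of 50 bp, per the labels' protocols. FastQC, Trimmomatic 0.22, STAR and the build rn6 are named in the submitters' processing notes. How FPKM was computed (tool, annotation, strand, reads with several matches) is not given in the sources used here. Values are FPKM as deposited by the authors, with 2 decimals and 1 column for each library. FPKM gives no absolute depth, so no counting intervals were computed. Without entries above 10000 FPKM the libraries summed to 433285, 477484 and 430187 FPKM.

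Tests used log2(FPKM + 0.1). Entries with a value above 0 in any library, 17611 in all, entered limma 3.58.1 (R 4.3.3, statmod 1.5.0, robust prior with trend), one-sided against 1 FPKM. For pairs, the log2 ratio of every entry to 1 anchor gene within each library was tested two-sided in a separate fit per anchor, the anchor being the first gene of a pair in the order given at the opening. P-values were Benjamini-Hochberg adjusted over all entries of a fit, with a threshold of 0.05. The size of a pair's p depends on the anchor's fit, in which all entries share the anchor's own variation. With 3 libraries the smallest two-sided p of an exact sign-flip is 0.25, so limma was used. Both tests were run on simulated data, with 50 entries at each true fold of 1, 1.3, 1.5 and 2. Against 1 FPKM, 1, 34, 49 and 50 were called, and for ratios to Src 1, 50, 50 and 50. The simulated noise was independent between entries and held no shift of a whole library, unlike these data.

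The 10 genes, lists and tests were chosen with earlier results of these data known. Named are the 10 genes, all reported genes of the Src kinase and the Crk and Cas lists, from the remaining lists the top 4 and bottom 2 genes (or all, up to 6), genes of planned pairs, and the nearest entries of Src, Fyn, Crk and Bcar1; some cell class markers are given only as counts, and Pag1, Ptpre and Ptpn6 were added with their values in view. Of the list genes, 2 are not reported here, 2 matched no symbol, and Rack1 and Arhgap35 were matched through RefSeq synonyms (assembly GRCr8, names only). Tables and figures were made with pandas 2.3.3 and matplotlib 3.10.9 in Python 3.11.15. Alternatives were other pseudocounts, scalings, filters, levels, a simpler prior, a margin for pairs and each library left out.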

Additional observations from a re-analysis of the deposited data

How the results depend on the processing

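No paired analysis was possible because all libraries form 1 group. With each library rescaled to a sum of 1000000 FPKM, which lowered the median entry by 4.54 on the log2 scale, 5 of the 10 genes lay above 1 FPKM in place of 10. Yes1 (-1.39), Efs (-1.33) and Nedd9 (-1.88) then lay below it on the log2(FPKM + 0.1) scale. Under the same scaling the lists passed in 2 genes in place of 4 (Src kinases), 2 in place of 7 (Csk arm), 3 in place of 11 (focal adhesion), 2 in place of 5 (Crk and Cas), 0 in place of 17 (their partners; 0 also at an unadjusted p under 0.05 in limma), 5 in place of 17 (substrates) and 1 in place of 2 (other inhibitors). The share of all entries passing under this scaling was not computed, so these falls cannot be set against a background. The counts of pairs called were the same, 42 of the 10 genes and 8 with relatives, but folds against low genes shrank: Csk over Matk from 73.9 to 16.8, Ptk2 over Ptk2b from 52.1 to 10.6, Src over Lyn from 26.7 to 11.1, Fyn over Lyn from 80.9 to 32.3, Crk over Dock1 from 15.0 to 8.71 and Bcar1 over Cass4 from 209 to 12.9. With a pseudocount of 0.01, Bcar1 over Cass4 rose from 209 to 620. No fold among the 10 genes moved by over 1.5 times under any alternative. Against 5 FPKM, Nedd9 lay at -0.10. Against 0.5 FPKM, 4 of the 5 other inhibitors passed. Where only entries with a mean of at least 1 FPKM were tested, 5 of the 8 planned pairs with relatives were left, since Matk, Ptk2b and Cass4 were not tested. Without the trend and robust prior, Csk and Crk no longer differed (limma adjusted p = 0.0679). With each library left out, 41 to 42 member pairs passed. Absolute depth is unknown, so how far it limits the lowest values cannot be stated.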

Other observations

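Cttn, which encodes the actin regulator cortactin, a substrate of Src kinases found in most cell types, was listed at a low level in these cultures. Its higher entry (ENSRNOG00000050994) had 0.89, 0.96 and 0.83 FPKM and the other entry of the same symbol (ENSRNOG00000047280) was listed at 0 in every library. How reads that match both entries were counted is not given in the sources used here. Whether such reads lower the listed level was not tested. Other substrates with roles at the growth cone were well above 1 FPKM as deposited. Among them were the catenins Ctnnd1 at 45.6 ± 1.15 and Ctnnd2 at 34.0 ± 0.858 FPKM (SD, n = 3) and the Reelin adaptor Dab1 at 16.9 ± 1.92. Of the 18 listed substrates and partners, only 5 passed after rescaling each library to a sum of 1000000 FPKM. The Dok adaptors of neurons, docking proteins for receptor kinases, lay at 25.2 ± 2.60 (Dok5), 19.7 ± 2.85 (Dok4) and 5.15 ± 0.947 FPKM (Dok6). Ctnnd1, Ctnnd2, Dab1 and the Dok genes are not covered by the rule for named genes and were picked with their values in view. The phosphatase Ptpn6 (Shp1), known from blood cells, had 1.48, 2.35 and 1.79 FPKM, lowest in library 1 and highest in library 2 like Lyn and Fgr; whether the macrophage marker genes in these cultures have a part in this was not tested.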
